A study of Mus musculus with 4 samples.

Results

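A small set of T cells that carried transcripts of Hdac9, Slamf7, Eomes, Xcl1 and related genes was described in tumour-draining lymph nodes. A cell belonged to the set when it held at least 1 unique molecular identifier (UMI, 1 counted transcript) in each of 3 or more of Hdac9, Slamf7, Xcl1, Lad1, Eomes, Hivep3 and Ptprk. It also had to hold at least 1 UMI of Cd3e, Cd3d or Cd3g, at most 1 UMI of Ccl5, and none of Foxp3, Trdc or Cd79a, which mark regulatory T cells, gamma delta T cells and B cells. Of 48597 barcodes, 48578 passed a filter of 300 or more genes and no more than 10% mitochondrial UMIs, 42945 of these met the conditions on the T cell genes and are called eligible, and 266 were selected. The other 42679 eligible T cells held 0 to 2 of the 7 genes. Mitochondrial UMIs were scarce, at a median of 0.028% in the selected cells and 0.053% in the other eligible T cells. The 10% limit could therefore hardly screen for damaged cells.

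The mice carried tumours of MC38-OVA, a mouse colon carcinoma line that expresses ovalbumin, and total live T cells from the nodes that drain the tumour were isolated by flow cytometric sorting. The mice had either the control genotype (WT) or a knockout of PD-L1 restricted to dendritic cells (KO), and received either a control treatment (CTRL) or doxorubicin (DOX), an anthracycline that damages DNA. This gave 4 droplet libraries made with a 5' kit, and values for them are given throughout in the order WT-CTRL, then WT-DOX, then KO-CTRL, then KO-DOX. They held 12828, 12438, 12959 and 10372 barcodes. The age of the mice, the dose and time of doxorubicin, the gene that drives the dendritic cell knockout and the number of mice behind each library are not known here. With 1 library for each group there are no replicates, so no test between groups exists, and every interval given is a 95% interval that covers counting error only. PD-L1 is removed in dendritic cells, so the T cell level of its gene Cd274 does not check the genotype label. In the selected cells Cd274 was at 43.6 CPM (UMIs per 1000000 UMIs of the same cells), 29.9, 66.7 and 50.3 in the 4 libraries, against 65.4, 65.1, 82.8 and 83.2 in other eligible T cells.

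Eomes is a T-box transcription factor of memory CD8 T cells and natural killer cells, and Slamf7 is a self-binding receptor of the SLAM family found on activated and cytotoxic lymphocytes. Xcl1 is a chemokine that CD8 T cells and natural killer cells release to attract cross-presenting dendritic cells. Hdac9 is a class IIa histone deacetylase that acts with MEF2 factors, Hivep3 a zinc finger protein, Ptprk a receptor tyrosine phosphatase and Lad1 a filament-anchoring protein best known from epithelium. The coreceptors CD4 and CD8 bind class II and class I MHC and divide mature T cells into helper and cytotoxic lineages. Mature T cells with neither coreceptor are rare and have been described as a product of repeated contact with self antigen.

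In GENCODE M21 for GRCm38, Hdac9 lies on chromosome 12 (34047580 to 34917095, minus strand), Eomes on chromosome 9 (118478212 to 118486132, plus strand), Ptprk on chromosome 10 (28074820 to 28597397, plus strand) and Hivep3 on chromosome 4 (119733784 to 120138045, plus strand). Slamf7 (171632403 to 171653035, minus strand), Xcl1 (164931644 to 164935527, minus strand) and Lad1 (135818598 to 135833342, plus strand) all lie on chromosome 1. The counts are per whole gene, with no exon or isoform given.

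The set held 65, 62, 81 and 58 cells in the 4 libraries. As a share of eligible T cells this was 0.574% (Clopper-Pearson interval 0.443 to 0.731%), 0.564% (0.433 to 0.723%), 0.704% (0.560 to 0.874%) and 0.635% (0.483 to 0.821%). The 4 intervals overlap, and none of the libraries stood apart in the size of the set. The ratio of shares was 0.983 (0.695 to 1.39) for WT-DOX over WT-CTRL and 0.902 (0.645 to 1.26) for KO-DOX over KO-CTRL. It was 1.23 (0.886 to 1.70) for KO-CTRL over WT-CTRL and 1.13 (0.788 to 1.61) for KO-DOX over WT-DOX, so each interval included 1 and a difference was not detectable at this number of cells.

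Depth moved with selection. The selected cells held a median of 8908, 7152, 10329 and 8952 UMIs in the 4 libraries, against 3029 over the other eligible T cells of all libraries, and a median of 2865 genes against 1370. Of eligible cells with 2000 to 3000 UMIs, 0.103% were selected, against 14.5% of those with 10000 UMIs or more, where 116 of 798 were. With every cell thinned to 2000 UMIs and shallower cells left out, the rule found 62 cells in all, with shares of 0.209%, 0.208%, 0.127% and 0.145%. In thinned counts the KO libraries thus had the lower shares, the reverse of the order in the deposited counts. The ratio was 0.605 for KO-CTRL over WT-CTRL and 0.698 for KO-DOX over WT-DOX. These shares rest on 20, 19, 12 and 11 cells from 1 random thinning. Their intervals overlap, at 0.128 to 0.323%, 0.125 to 0.324%, 0.0655 to 0.221% and 0.0724 to 0.259%. The plot of the share by library and by depth shows both.

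**Figure D1:**
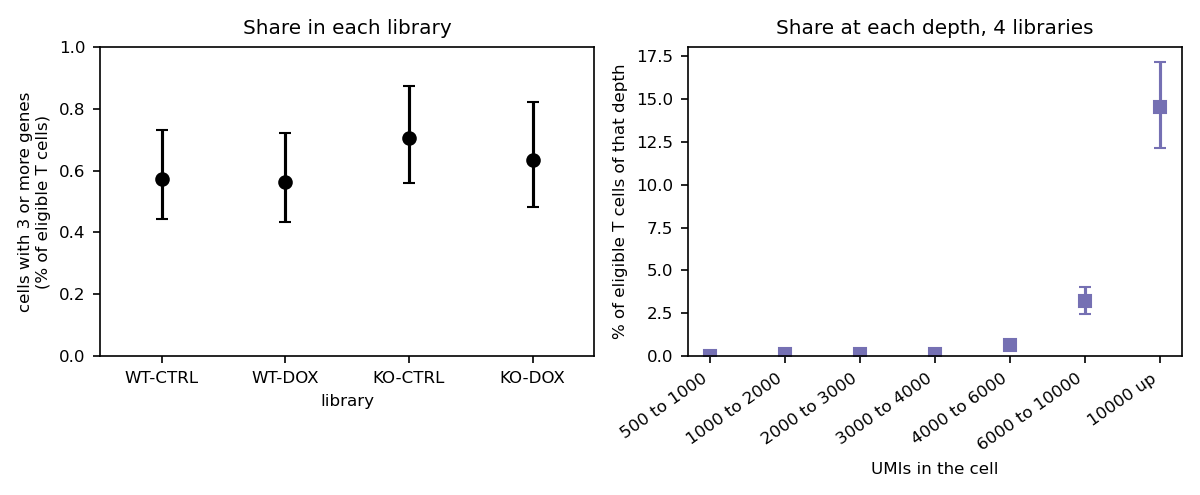
Share of eligible T cells with UMIs of 3 or more of the 7 genes, in percent, for each library on the left and for cells of each depth in UMIs, 4 libraries together, on the right. Bars are Clopper-Pearson 95% intervals; the libraries lie between 0.564% and 0.704%, while the share reaches 14.5% in cells with 10000 UMIs or more.

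The threshold of 3 genes cut a continuous series. Exactly 0 of the 7 genes were seen in 38346 eligible cells, 1 in 3782, 2 in 551, 3 in 188, 4 in 63, 5 in 13 and 6 in 2, and no cell held all 7. Cells just outside the rule, with 2 genes, had a median of 6056 UMIs, and those just inside, with 3, had 8629. CD8-only cells, defined by UMIs of Cd8a or Cd8b1 and none of Cd4, made up 64.6% of the first and 68.1% of the second. Cells without any coreceptor UMI made up 13.4% and 16.5%.

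The most frequent genes of the rule were Slamf7, with a UMI in 82.3% of the selected cells, Eomes in 74.8% and Xcl1 in 57.1%. Hivep3 was seen in 46.6%, Hdac9 in 28.6%, Ptprk in 24.1% and Lad1 in 22.2%. These values describe the rule, since it chose the cells by them. The commonest combination was Slamf7, Xcl1 and Eomes, in 48 cells, which numbered 9, 6, 20 and 13 by library. Hdac9, Slamf7 and Eomes together, with none of the other 4, were held by 22 cells, of which 10 came from WT-CTRL, 9 from WT-DOX, 2 from KO-CTRL and 1 from KO-DOX. Hdac9 met Eomes in 67 cells and Slamf7 in 61, but Xcl1 in 19 and Lad1 in 5.

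Levels of these genes in the selected cells differed between libraries. Hdac9 stood at 244, 315, 65.1 and 42.1 CPM, and Slamf7 at 297, 415, 139 and 185. Eomes stood at 273, 243, 165 and 176 CPM and Ptprk at 135, 89.6, 32.2 and 24.6. For each of these 4 genes, and for Lad1 at 48.4, 72.1, 37.6 and 24.6 CPM, both WT libraries lay above both KO libraries. The rule chose the cells by these genes, and 1 UMI is a higher CPM in a shallower cell. Median depth was 8908, 7152, 10329 and 8952 UMIs, so WT-CTRL and KO-DOX were close in depth but apart in Hdac9. The parts of the rule, of depth and of genotype in these levels were not tested. Hivep3, at 74.3, 116, 75.3 and 69.0 CPM, did not divide in this way. Xcl1, at 267, 346, 311 and 422 CPM, did not divide by genotype. Of the Ptprk UMIs, 62 lay in 1 cell, and the most Hdac9 UMIs in 1 cell were 68.

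Each gene was also described in cells that it had not helped to choose, those with 3 or more of the other 6 genes after thinning to 2000 UMIs. Slamf7 was then seen in 59.1% of cells (13 of 22), against 0.879% of cells with none of the other 6. Eomes was seen in 52.2% (12 of 23) against 2.16%, Hdac9 in 26.8% (11 of 41) against 0.364%, and Ptprk in 17.3% (9 of 52) against 0.175%. These 4 genes were found in the same cells far above their background share. The genes of the rule were chosen with earlier results of these data known, and the other 6 still chose the cells. The values are therefore a description and not a test. Xcl1 reached 9.52% (4 of 42) against 0.462%. Hivep3, at 6.25% (interval 1.31 to 17.2%) against 2.43%, and Lad1, at 1.70% (0.0429 to 9.09%) against 0.394%, had intervals that included the background.

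Coreceptor use was mixed. Of the 266 cells, 178 (66.9%) were CD8-only, 30 (11.3%) held UMIs of Cd4 alone, 15 (5.64%) held both and 43 (16.2%) held neither. Among the other eligible T cells the shares were 47.2%, 17.6%, 2.58% and 32.6%. Depth differs between these classes: the selected CD8-only, CD4-only, both and neither cells had medians of 9964, 9403, 14661 and 3806 UMIs. Missing coreceptor UMIs are common for CD4, since 45.1% of 934 Foxp3-positive cells, taken as a CD4 lineage, had no Cd4 UMI (47.4% at 3000 to 5000 UMIs). UMIs of the other coreceptor also occurred, with a Cd8a or Cd8b1 UMI in 176 of these 934 cells (18.8%). A Cd4 UMI was seen in 4.26% of CD8 cells with at least 2 Ccl5 UMIs. Whether these were stray UMIs was not tested. The Foxp3-positive cells compared further below are the 758 without Cd8a or Cd8b1 UMIs. Depth, doublets and free RNA were not told apart for the 15 cells with both.

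At the level of the CD8-only cells (Cd8a and Cd8b1 together), a cell of the median depth of the neither class would hold 4.20 UMIs, and Poisson counts at each cell's own depth would leave 2.06 of the 43 cells without one. At the Cd4 level of the CD4-only cells the same depth gives 0.791 UMIs and 18.9 of 43 cells without one. The levels come from cells chosen to hold the coreceptor and are therefore high. How many of the 43 cells lacked coreceptor transcripts and how many had them uncounted was not tested further.

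The neither class was unevenly spread over libraries. It held 14, 17, 7 and 5 cells in the 4 libraries, which is 21.5%, 27.4%, 8.64% and 8.62% of the selected cells. As a share of eligible T cells this was 0.124% (0.0676 to 0.207%), 0.155% (0.0902 to 0.248%), 0.0609% (0.0245 to 0.1253%) and 0.0548% (0.0178 to 0.128%). Both WT libraries lay above both KO libraries, but the intervals of KO-CTRL and WT-CTRL overlap. The ratio was 0.492 (0.199 to 1.22) for KO-CTRL over WT-CTRL and 0.354 (0.131 to 0.959) for KO-DOX over WT-DOX, and 1 of these 2 intervals left out 1. CD8-only cells ran the other way, with 43, 33, 62 and 40 cells and ratios of 1.42 (0.963 to 2.09) and 1.46 (0.921 to 2.31), both intervals including 1. Doxorubicin over control gave ratios of the neither class of 1.25 (0.617 to 2.54) in WT and 0.900 (0.286 to 2.84) in KO. Whether such differences exceed those between mice cannot be told from 1 library a group.

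The 7 genes were shared out unequally between coreceptor classes, as the bar plot of the 7 genes shows. In the neither class Hdac9 was seen in 72.1% of cells at 803 CPM, against 17.4% and 108 CPM in the CD8-only class. Slamf7 was at 960 against 186 CPM and Eomes at 684 against 165. Xcl1 took the opposite place, in 16.3% of neither cells at 61.8 CPM and in 69.1% of CD8-only cells at 362 CPM. Lad1 was seen in 4.65% of neither and 23.0% of CD8-only cells. The CD4-only cells lay between for Hdac9 (9 of 30 cells) and Xcl1 (36.7%), and Ptprk was seen in 43.3% of them. Requiring 3 of 7 genes ties the frequencies to each other, so a low share of 1 gene raises the others. It also sets a least number of UMIs per cell, and 1 UMI is a higher CPM in a shallow cell such as those of the neither class. Over the 43 neither cells Hdac9 held 169 UMIs and Slamf7 202, against 287 and 496 over the 178 CD8-only cells. The parts of the rule and of depth in these levels were not tested. The set held cells of every coreceptor class, so the cells are called here by the rule.

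**Figure D2:**
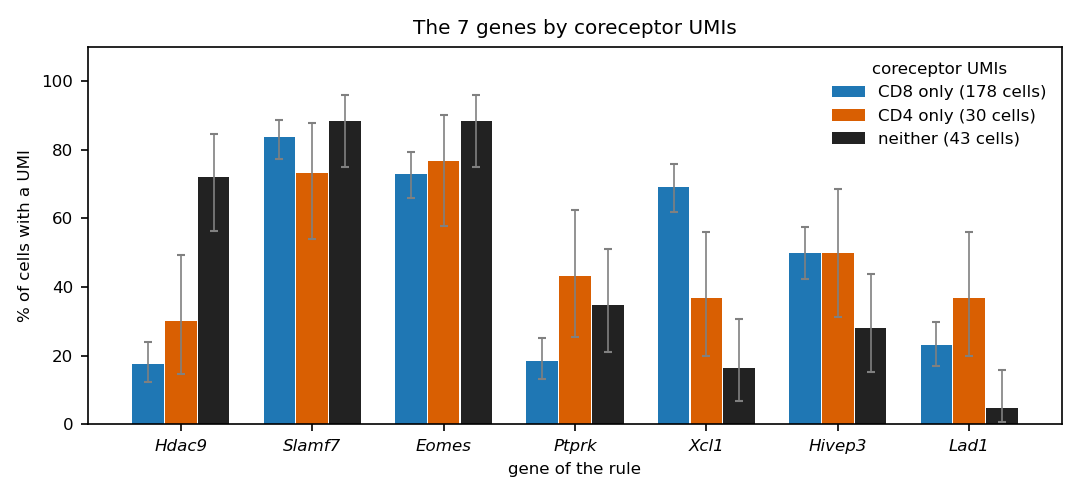
Percentage of selected cells with a UMI of each of the 7 genes, by the coreceptor UMIs of the cell (178 CD8-only, 30 CD4-only and 43 cells with neither). Bars are Clopper-Pearson 95% intervals; Hdac9 reaches 72.1% in cells with neither coreceptor and 17.4% in CD8-only cells, and Xcl1 16.3% and 69.1%.

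Cell cycle transcripts were abundant in many selected cells. A list of 15 cell cycle genes took 20 or more of every 10000 UMIs in 101 of 266 cells, which were 71 of the CD8-only cells (39.9%), 15 of the 30 CD4-only cells, 9 of the cells with both and 6 of the 43 neither cells (13.95%). By library these were 20, 17, 37 and 27 cells. They were also mostly the deep cells, as the plot of depth against cell cycle UMIs shows. Mki67, which encodes the proliferation marker Ki-67, was seen after thinning to 2000 UMIs in 13.95% of selected cells and 1.57% of other eligible T cells, against 30.1% and 2.36% in the deposited counts. Thinned follicular helper cells, a CD4 comparison group, had 11.6%. Thinned neither cells had 0 of 35, with an interval up to 10%. Top2a, another gene of dividing cells, was seen in 3 of these 35 cells (8.57%, interval 1.80 to 23.1%). It was seen in 21.7% of all thinned selected cells and 3.20% of thinned other eligible T cells.

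**Figure D3:**
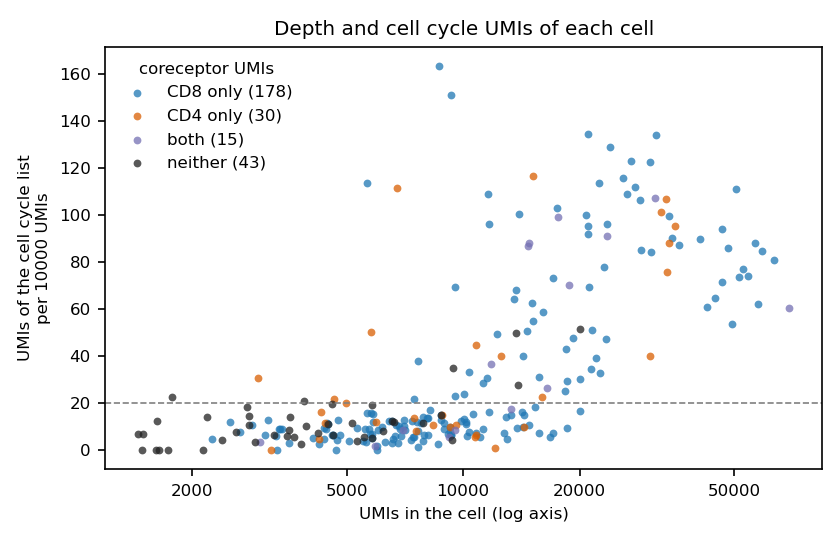
Each of the 266 selected cells by its UMIs (log axis) and the UMIs of 15 cell cycle genes per 10000 UMIs, coloured by coreceptor UMIs. The dashed line is at 20 per 10000, which 71 CD8-only cells and 6 cells with neither coreceptor reach; these cells lie mostly at high depth.

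Compared with other eligible T cells, the selected cells held more transcripts of cell cycle genes and fewer of several naive T cell genes. A gene was called where the log2 fold of CPM plus 1 was at least 1 in size with the same sign in each of the 4 libraries, over genes with at least 20 CPM on either side. By this rule 561 of 6438 genes were called (8.71%), of which 372 were higher (5.78%) and 189 lower (2.94%). With the other cells weighted to the depth of the selected cells in each library, 13 of 6132 genes were higher (0.212%) and 9 lower (0.147%). Most genes were thus not called at matched depth. The selection used these cells' own counts, so all of this is a description and carries no test. Lists below were chosen with earlier results of these data known.

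Gzmk encodes granzyme K, a protease of early effector and memory CD8 cells. It was at 56.6, 148, 72.9 and 153 CPM, against 1.82 to 8.78 CPM in other eligible T cells, a mean log2 fold of 4.11, or 1.80 without a call against depth-weighted cells. Every library of selected cells lay above every library of the others, but Gzmk was named for its large fold in all libraries. The level rested in part on a few cells, since 62 cells held a UMI and 1 of them held 32. Ctla2a encodes an inhibitor of cysteine proteases found in activated T cells. It was at 166, 362, 254 and 228 CPM against 18.4 to 27.6, with log2 folds of 3.48 and, at matched depth, 2.07, and was seen in 155 cells.

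Crtam encodes an adhesion receptor of activated CD8 and cytotoxic CD4 T cells. It stood at 136, 102, 111 and 114 CPM by library, against 14.1 to 16.8, with log2 folds of 2.82 and, at matched depth, 2.50. Tnfrsf9 encodes the costimulatory receptor 4-1BB. It stood at 112, 174, 104 and 116 CPM against 13.5 to 19.95, with log2 folds of 2.81 and 1.74. Il10ra, a chain of the interleukin 10 receptor, stood at 56.6, 109, 61.2 and 53.8 CPM against 6.08 to 9.18, with log2 folds of 3.02 and 2.74. For these 3 receptors the groups did not overlap, but they were named for large folds of the same sign in all 4 libraries. The share of all tested genes without overlap was not counted. Of the 3, weighting for depth changed the fold least for Il10ra and Crtam.

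Alcam, which encodes the CD6 ligand ALCAM, was at 126 against 15.5 CPM over the 4 libraries, and its log2 fold of 2.98 became 1.52. Plek, encoding pleckstrin, was at 34.1 against 3.83 CPM, Nrgn at 50.8 against 4.01 and Ctla2b at 40.3 against 3.23. Alcam, Plek, Nrgn and Ctla2b were not called at matched depth. Genes of DNA replication and division lost their difference altogether. Pclaf, a PCNA-binding protein, was at 519 against 65.6 CPM, but its log2 fold of 2.89 became -0.14 at matched depth. Tk1 (thymidine kinase) went from 2.88 to -0.07 and Spc24 (kinetochore) from 2.87 to 0.04.

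Among the 13 genes called higher at matched depth were Il10ra, Sox4, Epcam, Samd3, Crtam, Ddc, Ctla2a, Nr4a2, Mctp1, Rgs16, Tnfrsf9 and Itm2a. Nr4a2 is an orphan nuclear receptor induced by T cell receptor signals, and Rgs16 dampens G protein signalling. Nr4a2 was at 117, 206, 98.8 and 93.6 CPM by library against 29.6 to 33.4 in others. Sox4 (a transcription factor), Epcam (an epithelial adhesion molecule), Ddc and Mctp1 were each higher in both WT than in both KO libraries, for example Epcam at 99.1 and 35.2 CPM against 14.9 and 9.36. As given below, all 4 were higher in the neither class than in the CD8-only class, and the neither class was larger in both WT libraries. For KO-CTRL over WT-CTRL, the log2 fold of Epcam was -2.65 in all selected cells and -2.27 in CD8-only cells. For Sox4 it was -1.92 and -2.06. The part of class makeup in these differences was not tested.

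Genes of naive T cells were lower. Igfbp4, a marker of naive T cells, was at 22.4, 28.1, 5.49 and 9.36 CPM by library, against 256 to 347 in others, with log2 folds of -4.33 and, at matched depth, -2.39. Il7r, the interleukin 7 receptor, which keeps resting T cells alive, was at 42.5, 89.6, 61.2 and 69.0 CPM against 398 to 570, with log2 folds of -2.96 and -1.47. Ifngr2, a chain of the interferon gamma receptor, was at 18.3 against 155 CPM over the 4 libraries, with log2 folds of -2.97 and -1.24. No library of selected cells overlapped the others for these 3 genes, but they were named for large folds of the same sign in all 4 libraries. How many of all tested genes lacked such overlap was not counted. S1pr1, which lets T cells leave the node, was at 55.8 against 340 CPM, and its log2 fold of -2.74 became -1.39, without a call. The 9 genes called lower at matched depth were Igfbp4, Il7r, Ifngr2, Gm45552, Plcb4, H1f0, Areg and the helper genes Maf and Il21. Low Igfbp4 was not particular to the set. In thinned counts it was seen in 3.10% of selected cells, 1.95% of follicular helper cells and 34.2% of other eligible T cells. CD8 cells with more Ccl5 than the rule allows had 7.32%. For Il7r, follicular helper cells had 10.1% and selected cells 12.8%. Those CD8 cells, at 64.9%, and other eligible T cells, at 56.1%, were higher.

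**Figure D4:**
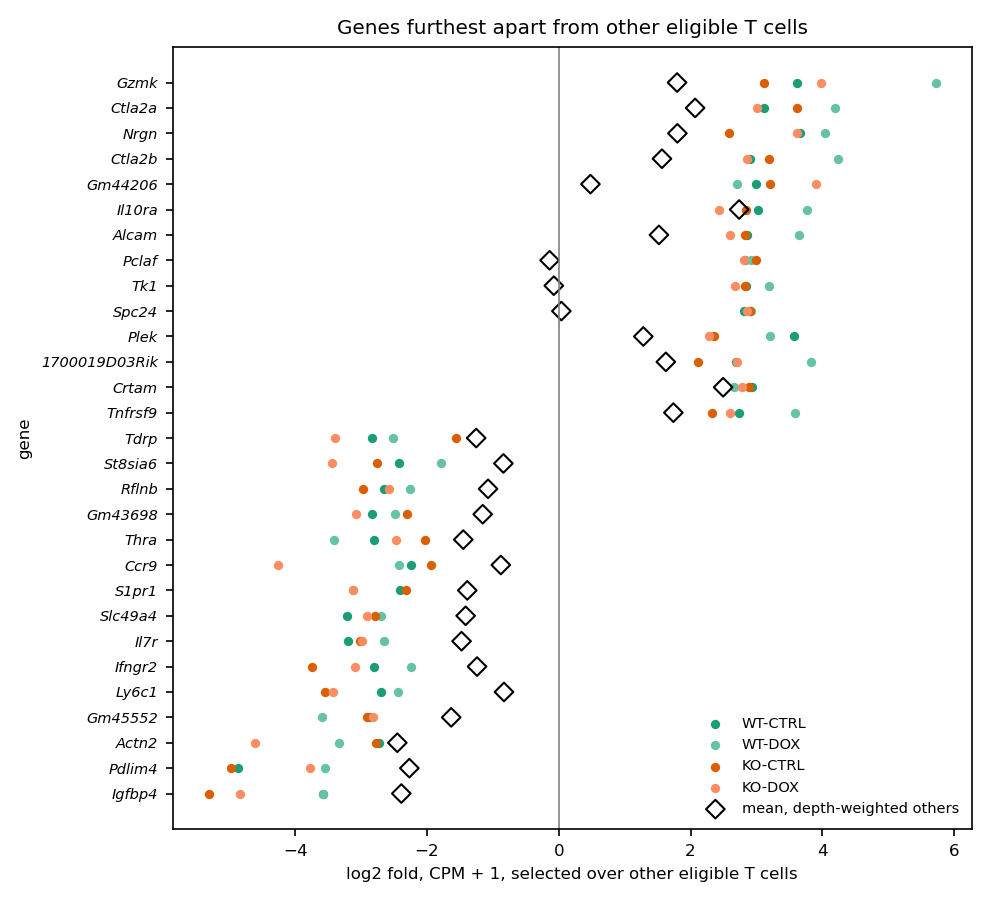
Log2 fold of CPM plus 1 of selected cells over other eligible T cells, for genes furthest up and furthest down, with 1 dot per library and an open diamond for the mean against depth-weighted cells. Pclaf, Tk1 and Spc24 have diamonds near 0, while Il10ra and Crtam keep 2.74 and 2.50.

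By list, 14 of 15 cell cycle genes were called higher and none lower, with a median log2 fold of 2.32 against -0.01 over all genes tested. At matched depth 0 were called and the median was -0.26. Of 13 naive and quiescence genes, 6 were lower (Lef1, Klf2, S1pr1, Il7r, Satb1 and Igfbp4) and 0 higher, with medians of -1.15 and, at matched depth, -0.38 with 2 lower. Of 8 inhibitory receptor genes, Pdcd1, Lag3, Cd160 and Cd200 were higher, with medians of 1.19 and 0.31 and no calls at matched depth. Of 12 genes of the T cell receptor response, Nr4a2, Irf8 and Tnfrsf9 were higher, and Nr4a2 and Tnfrsf9 remained so at matched depth.

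Of 9 cytotoxic genes, Gzmk and Cst7 were higher (medians 0.17 and 0.30), of 10 memory CD8 genes Cxcr3 and Klrk1 (0.99 and -0.26), and of 6 cytokine and chemokine genes Ifng and Ccl4. At matched depth 0 genes of these 3 lists were called higher, and 1 cytokine gene, Il21, was called lower. Ifng, interferon gamma, was at 76.4 against 13.0 CPM. Among 6 genes of type 1 regulatory T cells 4 were higher, with medians of 2.82 and 0.45, and at matched depth 2 were higher and 1 lower. Of the 8 tested SLAM family genes and adaptors other than Slamf7 none was called in either direction (median 0.82). Of 11 type I interferon genes 1 was lower and none higher. Pdcd1, encoding PD-1, stood at 44.3 against 14.9 CPM, Tbx21 (T-bet) at 13.0 against 4.02, Ikzf2 (Helios) at 145 against 72.4 and Tox at 280 against 259.

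Markers of other cell types were read in the same cells. Of 12 natural killer genes 9 held UMIs, summing to 53.1 to 144 CPM by library against 89.4 to 104.7 in other eligible T cells, with Ncr1, Klra4 and Klra8 at 0. Of 9 invariant NKT genes 3 held UMIs (136 to 220 against 57.1 to 70.6 CPM), with Zbtb16, Trav11 and Traj18 at 0. Of 10 gamma delta genes 4 did (1.76 to 5.49 against 5.12 to 7.55 CPM), with Tcrg-C1 and Tcrg-C2 at 0. Of 14 B cell genes 8 did (266 to 429 against 222 to 302 CPM), with Cd79a, which the rule requires at 0, and Ms4a1 and Igkc at 0. Of 11 dendritic and myeloid genes 7 did (65.5 to 102 against 61.8 to 67.1 CPM). Ncr1 and Traj18 were thus not seen in any selected cell, while other genes of both lists were. Ncr1 was also at 0 in Foxp3-positive and follicular helper cells. Traj18 was at 0 in both of these and in CD8 cells with at least 2 Ccl5 UMIs. The invariant NKT genes summed to 157, 198 and 215 CPM in these groups, in that order. A list of 10 RNA quality genes (Malat1, Neat1 and mitochondrial genes) summed to 5361, 5492, 3748 and 3026 CPM by library against 10313 to 13181 in other eligible T cells, and its part in the differences was not tested.

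Receptor segments were diverse. A Trav segment was seen in 203 selected cells and 57 of the 128 segments of the table occurred. A Trbv segment was seen in 241 cells, with 19 segments in use against 22 in other eligible T cells. The commonest were Trbv12-2 in 23 cells (9.54% of cells with a Trbv UMI, 6.29% in others) and Trav16n in 14 (6.90%, 3.87% in others). The 43 neither cells used 20 Trav segments among 25 cells and 15 Trbv segments among 40. The commonest of these were Trav12-3 in 3 and Trbv17 in 5 cells. Counts of near-identical Trav copies may be split between them by the authors' counting.

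The selected cells shared parts of their profile with known T cell groups in the same libraries, as the heat map of levels shows. CD8 cells with at least 2 Ccl5 UMIs had Ctla2a at 220 CPM, Slamf7 at 76.3, Eomes at 70.3, Xcl1 at 100 and Gzmk at 60.4, against 244, 232, 206, 333 and 100 in the selected cells. They had Hdac9 at 1.72 CPM. Foxp3-positive cells had Hdac9 at 11.3 and Epcam at 33.5 CPM, with Eomes at 4.01. Follicular helper cells had Slamf7 at 13.4 and Eomes at 12.1 CPM. Ccl5 and Foxp3 are part of the rule, so these groups cannot overlap the set by definition.

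**Figure D5:**
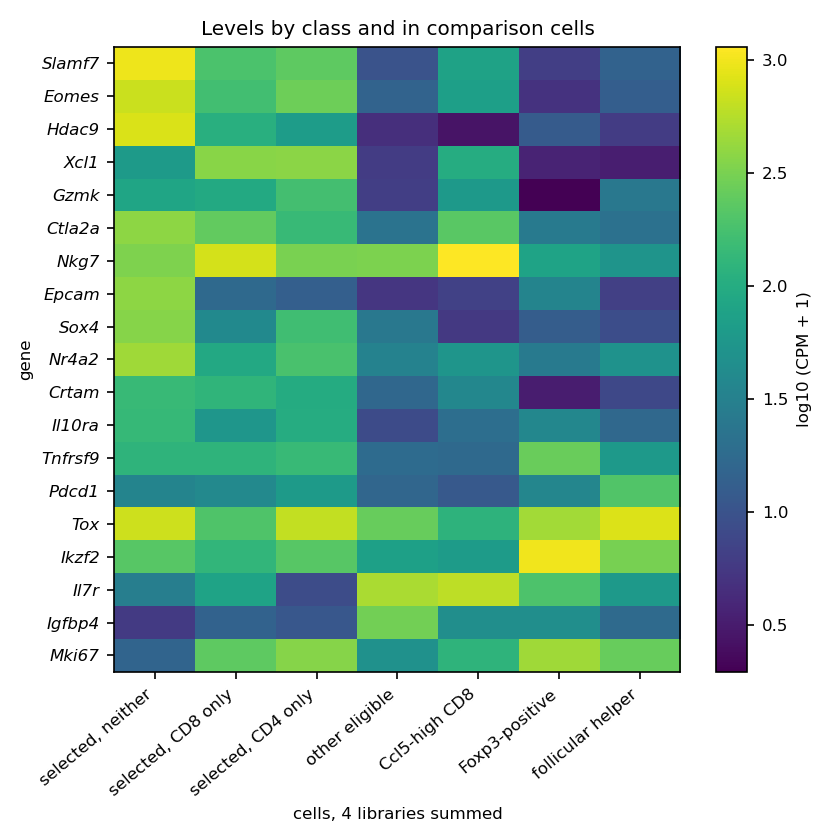
Levels as log10 of CPM plus 1, 4 libraries summed, of chosen genes in the selected cells by coreceptor class and in comparison cells. Hdac9, Epcam and Sox4 are highest in selected cells with neither coreceptor (803, 390 and 361 CPM), and Igfbp4 is low in all 3 classes of selected cells.

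The cells with neither coreceptor differed from other eligible T cells without coreceptor UMIs, with more Epcam, Ctla2a and Nr4a2 and less Il7r and Igfbp4. High Ctla2a and low Il7r and Igfbp4 were shared with the selected CD8-only cells. After thinning to 2000 UMIs, Igfbp4 was seen in 2.86% of neither, 2.81% of selected CD8-only and 34.2% of other eligible T cells. Il7r was seen in 8.57%, 15.2% and 56.1%, and Ctla2a in 54.3%, 33.7% and 2.22%. Genes named in this and the next paragraph were chosen after their values were seen, and the comparison at matched depth was added then. Against other eligible T cells that also lacked coreceptor UMIs, weighted for depth in 3 bins, 42 of 6510 genes were higher in all 4 libraries (0.645%) and 120 lower (1.84%), at the same 2-fold rule. KO-CTRL and KO-DOX gave only 7 and 5 neither cells, where 1 UMI is 38.6 and 29.6 CPM. In KO-DOX the smallest depth bin held 16 comparison cells. Some lower calls, such as Igfbp4, rest on 0 UMIs in both KO libraries. Epcam was at 390 against 9.62 CPM, in 22 of 43 cells, with 694, 218, 232 and 59.2 CPM by library. The most in 1 cell were 33 UMIs. After thinning to 2000 UMIs it was seen in 34.3% of neither cells, 2.25% of selected CD8-only cells and 0.783% of other eligible T cells. Ctla2a was at 390 against 20.5 CPM, Nr4a2 at 461 against 44.6, Mctp1 at 152 against 8.61, Crtam at 143 against 9.12 and Rgs16 at 238 against 20.5. Nkg7, a protein of cytotoxic granules, was at 333 against 44.7 and Ly6c2 at 280 against 31.7. Myb, a transcription factor of progenitor and stem-like T cells, was at 418 against 52.1 CPM. On the lower side were Igfbp4 (4.75 against 377), Il7r (28.5 against 418) and Cd52 (337 against 1536).

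Against the selected CD8-only cells, the neither cells had more Epcam (390 against 16.1 CPM), Mctp1 (152 against 9.36), Ddc (162 against 12.7), Sox4 (361 against 39.3), Nr4a2 (461 against 90.6), Gpr183 (409 against 83.9) and Tox (694 against 199). Gpr183 is a receptor that guides lymphocytes within the node. Ccr7, a homing receptor, was at 428 against 283 CPM. Genes at 0 UMIs in the neither cells included Gzma, Plac8 and Prc1. Taking 3 counts over the class as the limit, 14.3 CPM, Prc1 was at least 8.22-fold and Plac8 at least 4.89-fold lower than in CD8-only cells, where 49 and 42 cells held them. Cd160, an inhibitory receptor, was at 9.50 against 134 CPM and Ifng at 4.75 against 92.1. Itgb1 was at 66.5 against 555. Dendritic and myeloid genes summed to 85.5 CPM in the neither cells, natural killer genes to 14.3 and B cell genes to 71.3. The RNA quality genes summed to 10641 CPM in the neither cells and 3691 in the CD8-only cells, and 13 naive and quiescence genes to 4104 and 2152, and their part in these differences was not tested.

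The CD4-only cells, 30 in number, held more helper genes. Tox was at 631 CPM, Tnfrsf4 (OX40) at 288 against 44.2 in CD8-only cells, Cd40lg (CD40 ligand) at 143 against 8.99 and Maf at 65.1 against 4.87. Zbtb7b, the factor that sets the CD4 lineage, was at 22.5 against 1.12 CPM, in 6 and 3 cells. Xcl1 was at 1053, 164, 112 and 246 CPM by library, so the overall 373 CPM rested most on WT-CTRL, where 3 cells held it, and the other 3 libraries lay below the 362 CPM of the CD8-only class. Gzmk was at 30.7, 316, 68.1 and 459 CPM by library, highest in the doxorubicin libraries, in 12 cells in all. Eomes was at 280 CPM, below the neither class and above the CD8-only class.

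Between libraries, a gene was called within the selected cells where the 2 Poisson intervals were apart and the log2 fold was at least 0.58 in size, over genes with at least 50 CPM in either library. WT-DOX over WT-CTRL had 122 of 3563 genes higher (3.42%) and 126 lower (3.54%). KO-DOX over KO-CTRL had 45 of 3502 higher (1.28%) and 62 lower (1.77%). KO-CTRL over WT-CTRL had 135 of 3502 higher (3.85%) and 71 lower (2.03%), and KO-DOX over WT-DOX had 224 of 3642 higher (6.15%) and 177 lower (4.86%). Transcripts of 1 cell come together, so Poisson intervals are too narrow for such sums. In each library 1 cell gave 4.28 to 8.20% of all UMIs. The counts that also passed with equal weight per cell and without the cell richest in the gene were 42 higher and 45 lower, 17 and 21, 73 and 33, and 101 and 79, in the same order.

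Under doxorubicin in WT mice the largest difference was Zbed5, a domesticated transposase gene, at 466 against 5.90 CPM. It was in 51 of 62 WT-DOX cells and 5 of 65 WT-CTRL cells. The other eligible T cells of WT-DOX had it at 249 CPM and those of the other libraries at 0.785 to 0.9749, so it was higher across that library. Klrc1, encoding the inhibitory receptor chain NKG2A, was at 66.8 against 10.6 CPM in 12 and 6 cells, and the chemokine gene Ccl4 at 59.8 against 16.5 in 11 and 6 cells. S100a6 was at 432 against 132 CPM in 13 and 12 cells, and 1 WT-DOX cell held 92 of its UMIs. Of 10 genes of the T cell receptor response 4 were higher and 0 lower (median 0.58). Of 7 dissociation stress genes 3 were higher and 0 lower (median 0.47), and their part in this was not tested. Of 13 cell cycle genes 1 was higher and 4 lower (median -0.33). Pola2, a subunit of DNA polymerase alpha, was at 14.1 against 56.6 CPM, in 7 and 24 cells. Krt18, Mt1 and Ifitm2 were also lower, and single WT-CTRL cells held 76, 77 and 35 of their UMIs. Without the cell richest in the gene in each library their log2 folds were -4.21, -4.78 and -1.54. In other eligible T cells the cell cycle list was also lower, at 1179 CPM in WT-DOX and 1337 in WT-CTRL.

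Under doxorubicin in KO mice the chemokine gene Cxcl10 was at 152 against 50.2 CPM, in 16 and 24 cells, with 56 UMIs in 1 KO-DOX cell. Irf4, a factor induced by T cell receptor signals, was at 84.2 against 35.3 CPM, in 23 and 24 cells. Eif2b3 was at 58.5 against 25.9 and Nop2 at 53.8 against 25.1 CPM, both genes of protein synthesis. Ifitm3 rested on 1 cell with 54 UMIs. Of 5 type I interferon genes 3 were lower and 0 higher (median -0.89), and of 8 memory CD8 genes 3 were lower and 0 higher (median -0.58). Of 5 RNA quality genes 4 were lower and 0 higher (median -1.07, -1.52 in CD8-only cells and -0.19 with equal weight per cell), and their part in these differences was not tested. Of 15 cell cycle genes none was called in either direction. The histone genes Hist1h4a, Hist1h4h, Hist1h2bn and Hist1h2bg were lower, and single KO-CTRL cells held 82 or more UMIs of each. Without the cell richest in the gene in each library, Hist1h2bn stayed at a log2 fold of -2.42, Hist1h2bg was at -0.54, Hist1h4h at -0.20 and Hist1h4a at 1.496. The mitochondrial gene mt-Atp8 was at 10.5 against 51.0 CPM, in 8 and 28 cells. Median mitochondrial UMIs were also lower in other eligible T cells of KO-DOX (0.032%) than in those of KO-CTRL (0.061%). In these other cells the type I interferon list was at 1640 CPM in KO-DOX and 1889 in KO-CTRL, and the memory CD8 list at 814 and 720.

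Between genotypes under control treatment, 6 of 15 cell cycle genes were higher in KO-CTRL than in WT-CTRL and 0 lower (median 0.51). Of 8 memory CD8 genes 5 were higher and 0 lower (0.78), and of 5 type I interferon genes 3 and 0 (1.01). The largest folds upward were histone genes, such as Hist1h2bn at 107 against 8.26 CPM, with 82 UMIs in 1 KO-CTRL cell. Epcam was at 14.9 against 99.1 CPM, in 13 and 11 cells, and Sox4 at 34.5 against 133 CPM, in 16 and 26 cells. These 2 genes go with the neither class, of which WT-CTRL held 14 cells and KO-CTRL 7, and within CD8-only cells their log2 folds were -2.27 and -2.06. Ifitm1 and Gzma were also lower, but 1 WT-CTRL cell held 112 UMIs of the first and 1 held 66 of the second. Some of these orders also occurred outside the set. In other eligible T cells the cell cycle list summed to 1520 CPM in KO-CTRL and 1337 in WT-CTRL. There the type I interferon list was at 1889 and 1486 CPM, and the memory CD8 list at 720 and 717.5.

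Under doxorubicin, 8 of 15 cell cycle genes were higher in KO-DOX than in WT-DOX and 0 lower (median 0.79). The histone H1 gene Hist1h1e was at 1014 against 186 CPM, in 35 and 24 cells, and the mitotic checkpoint kinase gene Bub1 at 78.4 against 14.1 CPM, in 18 and 5 cells. Of 11 naive genes 6 were lower and 0 higher (median -0.60), and of 7 dissociation stress genes 5 were lower and 1 higher. Cers6, a ceramide synthase gene, was at 11.7 against 51.0 CPM, in 10 and 21 cells. Ifitm1 and Gzma were each held by 1 WT-DOX cell. The cell cycle list was also higher outside the set, at 1588 CPM in other eligible T cells of KO-DOX and 1179 in those of WT-DOX. Cells at 20 or more cell cycle UMIs per 10000 made up 27 of 58 selected cells in KO-DOX and 17 of 62 in WT-DOX, and 37 of 81 in KO-CTRL against 20 of 65 in WT-CTRL. The class makeup and this share differ with the libraries, and their part in the other differences was not tested beyond the values in CD8-only cells.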

How the data were processed

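The authors deposited 1 matrix of counts per library, each value being the UMIs of a gene in a barcode. Libraries were made with a SeekOne 5' kit per the labels, with reads placed on mm10, per the submitters' processing notes. Which aligner and cell caller were used is not given in the sources used here. In total, libraries held 46300824, 42987683, 47081849 and 37754389 UMIs. Pairs of libraries shared 175 to 271 barcode sequences, and no barcode was selected in 2 libraries. No doublet caller was run. The selected cells, lists (33, with 373 entries) and naming rule were chosen with earlier results of these data known.

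UMIs were summed over cells and divided by their total (CPM), with exact Poisson intervals, and shares have Clopper-Pearson intervals, all at 95% (Python 3.11.15, scipy 1.17.1, numpy 2.4.6, matplotlib 3.10.9, pandas 2.3.3). Genes named were the 15 largest mean log2 folds in each direction against other eligible T cells, the 5 largest in each direction between libraries, list members, and Cd4, Cd8a, Cd8b1, Zbtb16, Pdcd1, Cd274, Ikzf2, Tbx21 and Tox. Some genes that this rule picks are left out of the text and figures. Depth weighting used 10 bins of UMIs per library. Follicular helper cells had Cd4, no Cd8a, Cd8b1 or Foxp3, and 2 or more of Tox2, Sostdc1, Il21, Cxcr5, Bcl6 and Pdcd1. Calculations were tested on simulated data. Alternatives are given in the closing section.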

Additional observations from a re-analysis of the deposited data

Results flagged for a closer look

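Given here are 4 genes for which the selected cells went in opposite directions with doxorubicin in WT and KO mice. The share of all tested genes with opposite signs was not counted, so 4 is not the number of all such genes. The median log2 fold of the memory CD8 list, for example, was 0.62 in WT and -0.58 in KO. With 1 library a group, no difference between WT and KO was tested. The value given last for each gene is the log2 fold in WT minus that in KO. Cd160, an inhibitory receptor, was at 139 CPM in WT-DOX and 72.0 in WT-CTRL (log2 fold 0.94), but at 79.6 in KO-DOX and 129 in KO-CTRL (-0.69), a difference of 1.63. It was seen in 25 and 17, and 22 and 45 cells. Ifi27l2a, an interferon-induced gene, was at 573 and 311 CPM in WT (0.88) and at 339 and 630 in KO (-0.89), a difference of 1.77. The unannotated gene Gm44206 was at 38.7 and 81.4 CPM in WT (-1.06) and at 151 and 90.2 in KO (0.74), a difference of -1.79. The histone gene Hist1h2an was at 111 and 303 CPM in WT (-1.45) and at 425 and 273 in KO (0.64), a difference of -2.08, and was seen in 7 and 14, and 20 and 25 cells. Without the cell richest in each gene the folds kept their signs: 1.20 and -0.73 for Cd160, 0.87 and -0.77 for Ifi27l2a, -0.92 and 0.75 for Gm44206, and -1.74 and 0.52 for Hist1h2an.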

How the results depend on the processing

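No paired analysis was possible because each group is 1 library. Depth limits the set: thinned to 2000 UMIs, the share ratio was 0.605 for KO-CTRL over WT-CTRL and 0.698 for KO-DOX over WT-DOX, and without Xcl1 in the rule they were 0.875 and 0.802. KO-DOX over WT-DOX was also below 1 with 4 genes required (0.842) and without Eomes (0.869) or Hivep3 (0.9795). Classes became 60.1% CD8-only, 6.20% CD4-only, 0.388% both and 33.3% neither when thinned. With 2 UMIs needed, CD4-only, both and neither were 6.77%, 0.376% and 25.9%. Without cells above the 98th percentile of UMIs, CD8-only was 60.6% and neither 24.2%. The causes of the changes given here and below were not tested.

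Against other eligible T cells, higher and lower genes numbered 13 and 9 at matched depth and 145 and 55 without the deepest 2%. Lower genes numbered 97 at equal cell weight and 326 from 1 CPM, and higher genes 142 with 4 genes required. Pclaf reached -0.14 and Tk1 -0.074 at matched depth. Chosen after seeing the data, CD8-only cells against depth-weighted CD8-only cells gave 10 and 6 genes, with Pclaf at -0.27 and Tk1 at -0.034. Neither cells gave 82 higher against others with neither (Nrgn -1.23, Pclaf -2.12), and at matched depth 42 and 120 (Nrgn -2.10, Pclaf -4.60, Tk1 -1.78, Spc24 -0.50).

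Between libraries, with coreceptor classes weighted equally, higher and lower genes numbered 350 and 390 (WT-DOX over WT-CTRL), 535 and 400 (KO-DOX over KO-CTRL), 436 and 290 (KO-CTRL over WT-CTRL) and 453 and 267 (KO-DOX over WT-DOX), and Nop2 was at -0.058. At equal cell weight KO-DOX over KO-CTRL had 153 and 104, and KO-CTRL over WT-CTRL 219 and 154. From 20 CPM, 116 were lower in KO-CTRL than WT-CTRL. With 4 genes required, 66 were lower in WT-DOX than WT-CTRL, 116 lower in KO-DOX than KO-CTRL, 289 and 221 differed in KO-CTRL over WT-CTRL, and 44 and 58 in KO-DOX over WT-DOX. Then Ifitm2 (2.67) and Hist1h2ab (3.56) turned in WT-DOX over WT-CTRL, Ifitm3 (-2.49) and Cxcl10 (-0.39) in KO-DOX over KO-CTRL, Ifitm1 (3.36) and Gzma (3.36) in KO-CTRL over WT-CTRL, and Hist2h2ac (-0.60) and Hist1h2ab (-3.56) in KO-DOX over WT-DOX. Added after seeing the data, CD8-only cells gave 77 and 67 in WT-DOX over WT-CTRL, 71 higher in KO-DOX over KO-CTRL and 140 higher in KO-DOX over WT-DOX. Also added then, leaving out the cell richest in each gene gave 28 higher in KO-DOX over KO-CTRL, with Ifitm3 at -1.43 and Hist1h4a at 1.496. It put Ifitm1 at 2.39 in KO-CTRL over WT-CTRL and Gzma at 2.93 in KO-DOX over WT-DOX. Median-of-ratios scaling, a pseudocount of 5 CPM, Ccl5 at 0 and leaving out cells with both coreceptors turned none of these values, and none of the counts moved past 1.5 times.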
